A study of Homo sapiens with 4 samples.

Results

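The 9 genes described here are NFE2L2, KEAP1, GCLC, GCLM, SLC7A11, TXNRD1, SRXN1, HMOX1 and OSGIN1, a core set of the NRF2 antioxidant response, chosen by gene symbol from 60048 human genes in a table of nascent RNA signal. All 9 were in the table and all 9 passed the filter on low values, among 39464 genes tested. The assay was EU-seq, in the human colorectal carcinoma cell line HCT116. In EU-seq, cells take up the uridine analogue 5-ethynyl uridine (EU), and RNA made during the labelling is captured and sequenced. All 4 libraries came from cells of the genotype RAD21-mAC, in which RAD21, a core subunit of the chromosome-folding complex cohesin, carries a tag through which auxin triggers its degradation. The control group (2 libraries) received DMSO, and the auxin group (2 libraries) was treated for 3 h with indole-3-acetic acid at 0.5 mM. Labelling of the human cells took 20 min, at 0.5 mM EU, in both groups. The labels do not say whether the libraries came from separate cultures or whether the tagged cells are 1 clone, so p-values measure the spread between these libraries, which may be technical. Every auxin library came from cells that received the compound, the treatment meant to remove RAD21. RAD21 protein was not measured in the data used here. An effect of the compound and an effect of cohesin loss cannot be told apart in these groups.

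NRF2, the protein encoded by NFE2L2, is the main transcription factor of the response to oxidants and electrophiles. In unstressed cells KEAP1 holds NRF2 and presents it to a CUL3 ubiquitin ligase for degradation, and electrophiles that modify KEAP1 cysteines let NRF2 accumulate. NRF2 then pairs with a small MAF protein and binds the antioxidant response element, upstream of genes for glutathione synthesis, thioredoxin reduction, heme breakdown and drug metabolism. The aryl hydrocarbon receptor (AHR) is a separate, ligand-activated factor that shares some targets with NRF2, NQO1 among them. The comparison of auxin with control therefore asks whether the nascent signal of these genes differed, and AHR and its targets are set beside them.

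Promoter sequences of RefSeq (GRCh38.p14; 250 bases before to 50 after a start) were read for 7 of the 9 genes, with 10 windows in all; SLC7A11 and HMOX1 had no match in that table. The core of the antioxidant response element was searched as TGACNNNGC on both strands. It was found in 4 of the 10 windows, from TXNRD1, GCLM and KEAP1, and in 13.3% of all 35116 windows of that length. With an A or G required before the first T, the same 4 windows held it, against 6.88% of all windows. These windows are shown because they hold the letters that NRF2 reads, at the gene that passed the test (TXNRD1) and at genes whose groups overlapped (GCLM and KEAP1). Capitals mark TGACNNNGC or its reverse complement; the sequences run 5′ to 3′ on the gene's strand.
TXNRD1, upstream start, plus strand, chr12:104215529-104215828: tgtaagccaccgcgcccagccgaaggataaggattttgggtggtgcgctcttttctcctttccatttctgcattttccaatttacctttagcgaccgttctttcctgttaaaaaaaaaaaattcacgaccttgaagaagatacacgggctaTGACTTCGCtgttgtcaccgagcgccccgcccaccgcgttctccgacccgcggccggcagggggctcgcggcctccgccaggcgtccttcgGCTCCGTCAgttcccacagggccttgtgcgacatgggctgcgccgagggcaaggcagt
TXNRD1, downstream start, plus strand, chr12:104286782-104287081: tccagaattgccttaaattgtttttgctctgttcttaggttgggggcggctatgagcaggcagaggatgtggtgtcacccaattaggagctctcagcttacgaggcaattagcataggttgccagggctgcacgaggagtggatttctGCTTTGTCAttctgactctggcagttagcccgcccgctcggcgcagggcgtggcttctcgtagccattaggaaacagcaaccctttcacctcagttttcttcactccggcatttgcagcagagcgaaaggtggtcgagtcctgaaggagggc
GCLM, minus strand, chr1:93909381-93909680: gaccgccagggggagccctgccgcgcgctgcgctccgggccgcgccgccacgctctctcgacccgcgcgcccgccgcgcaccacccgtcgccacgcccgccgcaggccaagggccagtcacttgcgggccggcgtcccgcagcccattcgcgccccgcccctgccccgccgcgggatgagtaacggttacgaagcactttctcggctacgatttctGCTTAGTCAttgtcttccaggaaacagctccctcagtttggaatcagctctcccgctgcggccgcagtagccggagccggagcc
KEAP1, downstream start, minus strand, chr19:10502722-10503021: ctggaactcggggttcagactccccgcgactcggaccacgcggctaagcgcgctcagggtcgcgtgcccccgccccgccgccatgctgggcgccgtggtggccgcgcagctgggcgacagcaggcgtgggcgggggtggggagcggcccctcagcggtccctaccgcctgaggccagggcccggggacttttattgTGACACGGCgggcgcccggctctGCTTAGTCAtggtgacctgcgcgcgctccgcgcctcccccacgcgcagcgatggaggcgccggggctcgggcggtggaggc
The marked stretch of GCLM reads TGACTAAGC on the opposite strand, and the same 9 letters occur in KEAP1. The windows of NFE2L2, GCLC, SRXN1 and OSGIN1 and the upstream window of KEAP1 held no such match, which says only that these letters are not in these bases. The core of the AHR element, GCGTG on both strands, was in 8 of the 10 windows and in 36.5% of all windows, and overlapped TGACNNNGC in 0 of the member windows. Member windows were rich in G and C, with a median of 70.8% against 58.7% over all windows. A match is a description of the letters and not a measured binding site.

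Values are the authors' scaled signal per gene, brought to 1 scale over the 4 libraries by trimmed means of M-values; the depth in reads is unknown. The deposited totals ran from 61135244 to 93113007, and the scaling divided the libraries by 0.816 to 1.21. Of the 7 epithelial markers EPCAM, KRT8, KRT18, KRT19, CDH1, CDX2 and VIL1, all had signal in every library, with summed levels of 59061 to 65325 in control and 58246 to 60444 in auxin. The 7 markers of other cell types (PTPRC, CD3E, COL1A1, COL3A1, PECAM1, ALB and HBB) summed to 826 to 998 in control and 1160 to 1312 in auxin. Most of that sum was COL1A1, and HBB was at 0 in at least 1 library. The difference between the groups in that sum moves with the comparison, and its part in the results was not tested. In such bulk samples, fewer cells of a type and less RNA per cell cannot be told apart.

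Libraries numbered 1 and 2 stood apart for several of the 9 genes, in both groups. The library numbered 1 was the higher in control and in auxin for 7 of the 9 genes (KEAP1, GCLC, GCLM, TXNRD1, SRXN1, HMOX1 and OSGIN1), which held for 33% of 29158 tested genes with a mean of at least 50. In 4 genes (GCLC, GCLM, HMOX1 and OSGIN1) the ratio of replicate 1 to replicate 2 was above the 95th percentile of those genes in both groups, which held for 1.40% of them. For GCLC the ratio was 1.63 in control and 1.48 in auxin, for GCLM 1.56 and 1.79, for HMOX1 2.12 and 2.81, and for OSGIN1 2.00 and 1.59. For TXNRD1 it was 1.03 and 1.05. The labels give no day or batch for these numbers. Values of the 9 genes without single libraries are given where they change a call or a direction. Calls were gained in this way for GCLC, SLC7A11, HMOX1 and OSGIN1, and lost for TXNRD1. Such a fit leaves 1 library in a group, so only effect sizes are given for the gained calls. Leaving out 1 library leaves the replicate numbers unbalanced between the groups, which can itself move such values. A fit with the replicate number as a block is given at the end.

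**Figure D1:**
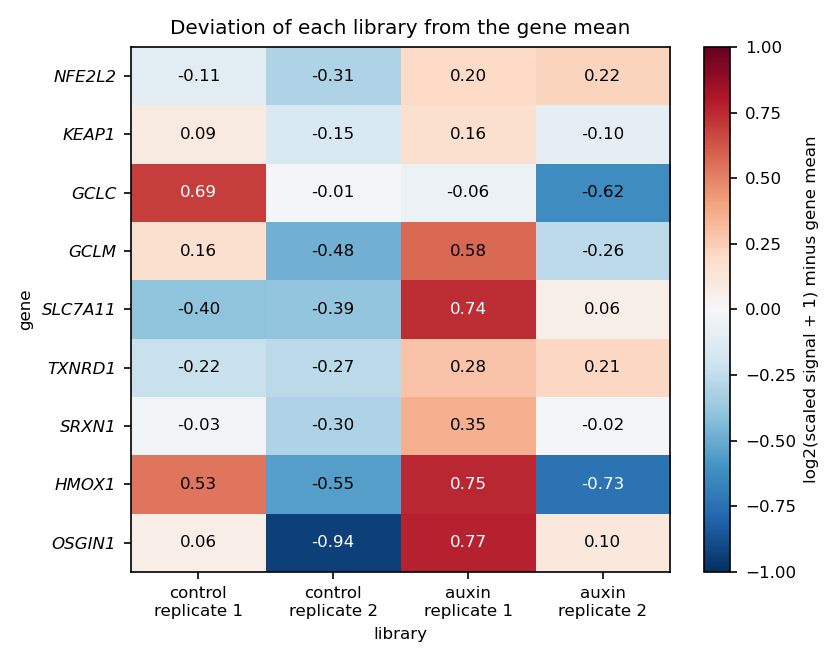
Deviation of each library (columns) from the gene's mean over the 4 libraries, in log2(scaled signal + 1), for the 9 genes (rows); red is above and blue below the mean. For HMOX1 the deviations are 0.53 and 0.75 in the libraries numbered 1 and -0.55 and -0.73 in those numbered 2, whereas for TXNRD1 they are negative in both control libraries and positive in both auxin libraries.

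Of the 9 genes, TXNRD1 rose with auxin, and the other 8 did not pass the test (limma with Benjamini-Hochberg adjustment over all tested genes, threshold 0.05). Over all tested genes, 0.732% passed, 0.332% as higher and 0.4% as lower. In 5 genes (NFE2L2, SLC7A11, TXNRD1, SRXN1 and OSGIN1) both auxin libraries lay above both control libraries, which held for 18.6% of all tested genes. In GCLC both auxin libraries lay below both control libraries, which held for 19.6% of all tested genes. KEAP1, GCLM and HMOX1 had overlapping groups. The median log2 fold change of the 9 genes was 0.33, against 0.0089 over all tested genes, and the 9 values ran from -0.68 to 0.87. Before adjustment, 5 of the 9 had a limma p under 0.05, where 10.2% of all tested genes did. Of these, 4 were higher and 1 was lower, against 4.75% and 5.47% of all tested genes. The 9 genes were chosen with earlier results of these data known, so these counts are a description of them.

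**Figure D2:**
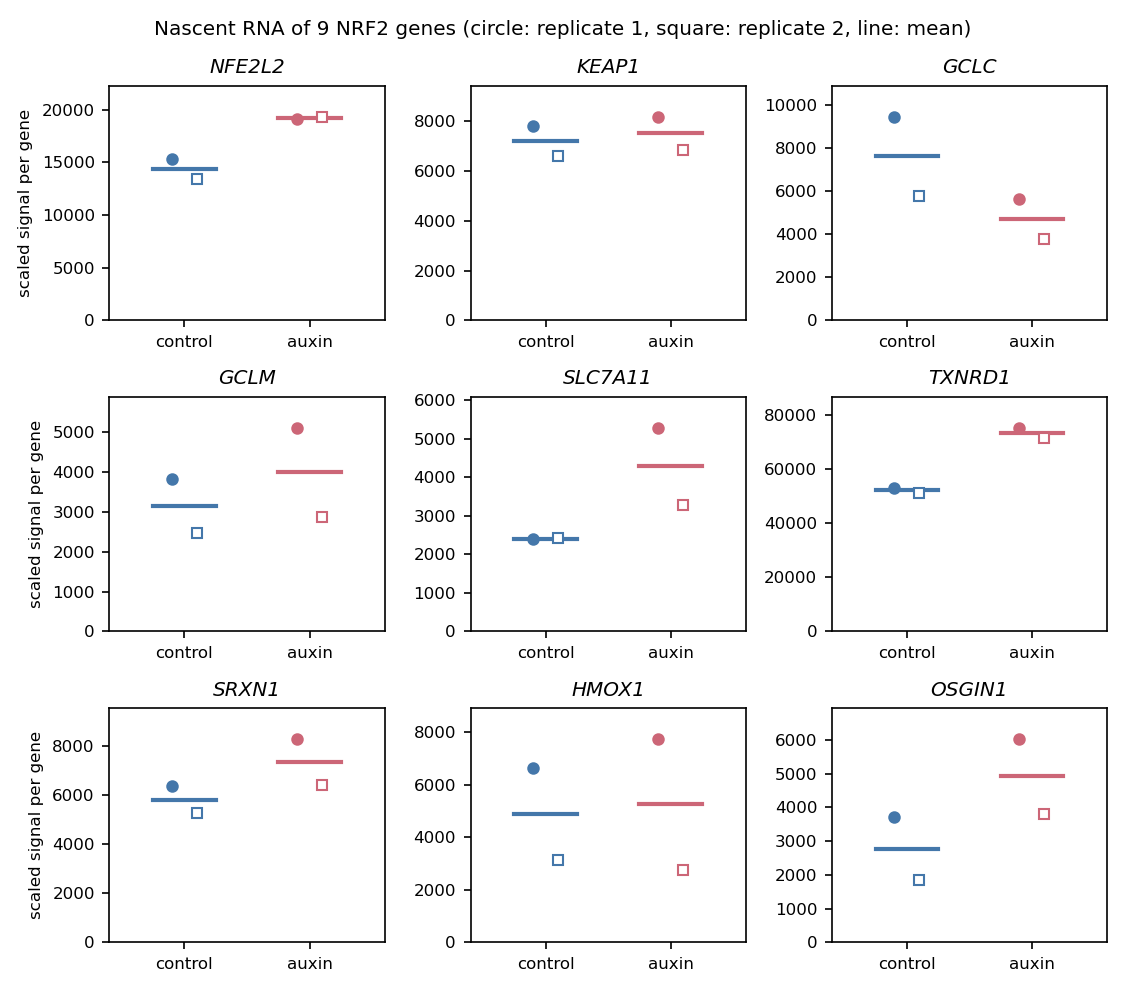
Scaled signal (vertical axis, linear from 0) of each of the 9 genes in the control and auxin libraries; circles are replicate 1, squares replicate 2, and lines the mean of 2 libraries. TXNRD1 libraries sit at 51266 and 53001 in control and at 71544 and 75265 in auxin, while HMOX1 libraries span 2764 to 7759 in auxin and overlap the control libraries.

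TXNRD1 encodes the cytosolic thioredoxin reductase, a selenoprotein that uses NADPH to keep thioredoxin reduced. Its scaled signal was 53001 and 51266 in control replicates 1 and 2, and 75265 and 71544 in auxin replicates 1 and 2. The auxin libraries were both above the control libraries, and the gap between the groups was several times the gap within either. The mean ± SD (n = 2 each) was 52133 ± 1227 in control and 73404 ± 2631 in auxin, and the log2 fold change was 0.49 (SE 0.086, 95% interval 0.30 to 0.69, limma adjusted p = 0.0334), a 1.41-fold rise. All 4 single auxin-to-control ratios lay between 1.35 and 1.47. The gene (ENSG00000198431, plus strand, GRCh38 chromosome 12, 104215779 to 104350307) spans EID3, RPL18AP3 and the antisense lncRNA AC089983.1, whose signals came to 2.71%, 2.92% and 7.03% of its own. The call lay close to the threshold and was lost with no filter on low values (adjusted p = 0.103), with a mean of at least 50 (0.0775), without limma's intensity trend (0.592), on the deposited scale (0.999999) and without control replicate 2 (0.121). Its log2 fold change stayed between 0.46 and 0.53 under all alternatives run.

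SRXN1 encodes sulfiredoxin, which repairs over-oxidised peroxiredoxins. The libraries measured 6373 and 5263 in control and 8306 and 6413 in scaled signal with auxin. Both auxin libraries were above both control libraries, but the lower auxin library exceeded the higher control library by a ratio of only 1.01. For SRXN1 the log2 fold change was 0.33 (SE 0.16, 95% interval -0.024 to 0.69, limma adjusted p = 0.531). SRXN1 (ENSG00000271303, minus strand, chromosome 20, 646615 to 653200) lies for 99.8% of its span inside the protein-coding gene AL121758.1 of the same strand, which had a log2 fold change of 0.33, so the table gives 1 measurement for both.

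NFE2L2 encodes NRF2 itself. The gene had a scaled signal of 15370 and 13454 in control and 19115 and 19358 in auxin. The auxin libraries nearly coincided and were above both control libraries, with single ratios from 1.24 to 1.44. Its log2 fold change was 0.42 (SE 0.11, 95% interval 0.17 to 0.67, unadjusted p = 0.00404 from limma), and it did not pass after adjustment over all genes (limma adjusted p = 0.167). The gene's span (ENSG00000116044, minus strand, chromosome 2, 177230308 to 177392697) is 162 kb long in this table. The lncRNA AC019080.1 of the same strand covers 67.2% of it, with 17.2% of its signal and a log2 fold change of 0.098.

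KEAP1 encodes the adaptor through which NRF2 is degraded. In scaled signal it stood at 7805 and 6600 in control and 8188 and 6843 in auxin. The groups overlapped, and in both the library numbered 1 was the higher. The log2 fold change was 0.061 (SE 0.14, 95% interval -0.26 to 0.38, limma adjusted p = 0.969), and its sign turned without control replicate 2 (-0.061) or auxin replicate 1 (-0.061). In the main fit this interval lay below the log2 fold change of 0.49 estimated for TXNRD1. Without limma's intensity trend the SE of KEAP1 was 0.20, and without control replicate 1 its log2 fold change was 0.19. The comparison with TXNRD1 was not made in those settings. KEAP1 (ENSG00000079999) lies on the minus strand of chromosome 19, 10486125 to 10503356, and overlaps the lncRNA AC011461.1, which carried 4.48% of its signal.

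Of the genes of glutathione supply, GCLC, GCLM and SLC7A11, none passed the test. Glutathione is made from glutamate, cysteine and glycine; GCLC is the catalytic and GCLM the modifier subunit of glutamate-cysteine ligase, the rate-limiting enzyme, and SLC7A11 is the cystine importer xCT. SLC7A11 had a scaled signal of 2398 and 2415 in control and 5289 and 3292 in auxin. The control libraries nearly coincided, and both auxin libraries were above them but differed 1.61-fold from each other. Its log2 fold change was 0.79 (SE 0.21, 95% interval 0.34 to 1.25, limma adjusted p = 0.146). It was 1.13 without auxin replicate 2 and 0.46 without auxin replicate 1. SLC7A11 (ENSG00000151012, minus strand, chromosome 4, 138164097 to 138242349) overlaps the antisense lncRNA SLC7A11-AS1 over 18.0% of its span. The lncRNA had signal equal to 47.7% of that of SLC7A11, and a log2 fold change of 0.33 (limma adjusted p = 0.761).

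GCLC had a scaled signal of 9446 and 5788 in control and 5606 and 3790 in auxin. Both auxin libraries were below both control libraries, although the higher auxin library nearly reached the lower control library (a ratio of 0.969). The log2 fold change was -0.68 (SE 0.24, 95% interval -1.21 to -0.16, limma adjusted p = 0.303). It was -0.96 without auxin replicate 1 and -0.32 without control replicate 1. GCLC (ENSG00000001084, minus strand, chromosome 6, 53497341 to 53545101) overlaps the antisense lncRNA AL033397.2 over 9.51% of its span. That lncRNA carried 6.45% of the signal of GCLC and had a log2 fold change of -0.70.

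GCLM had a scaled signal of 3832 and 2458 in control and 5112 and 2862 in auxin. The groups overlapped, since the lower auxin library lay below the higher control library. Between libraries of the same number, auxin was the higher in both, with ratios of 1.33 (replicate 1) and 1.16 (replicate 2). For GCLM the log2 fold change was 0.32 (SE 0.27, 95% interval -0.28 to 0.92, limma adjusted p = 0.823), and its sign turned without control replicate 2 (-0.0029) or auxin replicate 1 (-0.093). GCLM (ENSG00000023909, minus strand, chromosome 1, 93885199 to 93909430) overlaps no other gene of the table. Each subunit's interval left out the other's estimate, but the difference between the subunits was not tested.

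HMOX1 encodes heme oxygenase 1, which breaks down heme to biliverdin, iron and carbon monoxide and is among the most inducible genes of the oxidative stress response. Its scaled signal was 6657 and 3137 in control and 7759 and 2764 in auxin. In each group the library numbered 1 was high and the library numbered 2 low, and the range of the auxin libraries enclosed that of the control libraries. Its replicate ratios of 2.12 and 2.81 compare with 95th percentiles of 1.54 in control and 1.46 in auxin. The log2 fold change between the groups was 0.019 (SE 0.43, 95% interval -0.93 to 0.97, limma adjusted p = 0.997). This fit left the direction open. Between libraries of the same number, the auxin-to-control ratios were 1.17 (replicate 1) and 0.88 (replicate 2). With the replicate number as a block, where genes shared 1 trend of spread, HMOX1 had the same estimate with an SE of 0.11. Single libraries decided its sign. Leaving out control replicate 2 gave -0.52, leaving out auxin replicate 1 gave -0.72, and leaving out auxin replicate 2 gave 0.76. HMOX1 (ENSG00000100292) lies on the plus strand of chromosome 22, 35381096 to 35394207, and overlaps no other gene of the table.

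OSGIN1, an oxidative stress-induced growth inhibitor, had the largest estimate of the 9. Its scaled signal was 3701 and 1849 in control and 6037 and 3801 in auxin. Both auxin libraries were above both control libraries, but the lower auxin library and the higher control library were nearly level (a ratio of 1.03). The largest of the 4 single ratios was 3.26. The log2 fold change was 0.87 (SE 0.30, 95% interval 0.21 to 1.54, limma adjusted p = 0.297). It was 1.38 without control replicate 1, 1.21 without auxin replicate 2 and 0.37 without control replicate 2. OSGIN1 (ENSG00000140961) lies on the plus strand of chromosome 16, 83931311 to 83957650, and overlaps no other gene of the table.

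**Figure D3:**
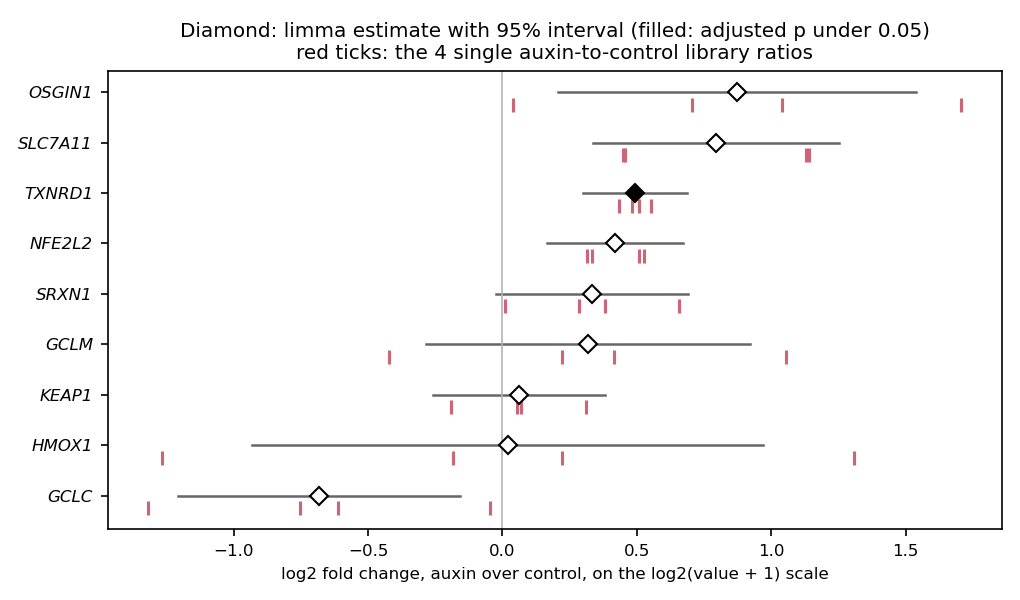
Log2 fold change of auxin over control (horizontal axis, log2(value + 1) scale) for the 9 genes, with limma's 95% interval; red ticks are the 4 single auxin-to-control library ratios. The TXNRD1 interval of 0.30 to 0.69 is the narrowest, and the HMOX1 interval of -0.93 to 0.97 is the widest.

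Levels of different genes were set side by side per kb of genomic span, in the control libraries. SRXN1 had the highest level, 883 scaled units per kb as a mean of 2 libraries, and its lower library (799) was above every library of the other 8 genes. KEAP1 (418), TXNRD1 (388) and HMOX1 (373) followed, with library ranges that overlapped. Next came GCLC (159), GCLM (130), OSGIN1 (105) and NFE2L2 (88.7), where each gene's libraries overlapped those of the next. SLC7A11 was lowest, at 30.8 per kb, and was the one gene below the median of 63.2 per kb over tested protein-coding genes. With auxin the same measure was 545.6 for TXNRD1, 436 for KEAP1, 401 for HMOX1, 187 for OSGIN1 and 98.4 for GCLC, so that OSGIN1 stood above GCLC in mean level; their library ranges (144 to 229 and 79.3 to 117) did not overlap. The span of a gene counts introns and any inactive upstream start, so a level per kb depends on the annotated span. The promoter windows of NFE2L2 (up to 177264977) and OSGIN1 (from 83952990) lie well inside spans that begin at 177392697 and 83931311. TXNRD1 has a window at the start of its span (104215779) and a downstream window (from 104286782) that also lies well inside it. The ranks of these genes, and OSGIN1 beside GCLC, therefore depend on the span used.

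Outside the 9 genes, 93 further genes of the NRF2 pathway were in the table and 88 were tested; GSTM3, GSTA1, TXNIP, CBR1 and CES1 did not pass the filter on low values. Of the 88, NQO1 rose and BACH2 fell, and 86 did not pass, where 0.732% of all tested genes passed. Their median log2 fold change was 0.044, against 0.0089 over all tested genes. Before adjustment, 20 of 88 had a limma p under 0.05, 11 higher and 9 lower, beside the 10.2% of all tested genes. Both auxin libraries lay above both control libraries in 23 of the 88 and below them in 19, beside 18.6% and 19.6% of all tested genes.

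NQO1 encodes a quinone reductase that both NRF2 and AHR induce. Its scaled signal was 11197 and 7695 in control and 21397 and 16770 in auxin. Both auxin libraries were above both control libraries, and the log2 fold change was 1.03 (SE 0.18, limma adjusted p = 0.0331). The NQO1 call was lost without control replicate 2 (0.76, adjusted p = 0.0995), with no filter on low values (adjusted p = 0.0570), with a mean of at least 50 (0.0503), on the deposited scale (0.999999) and without limma's trend (0.547). BACH2 encodes a repressor of the BACH family, whose member BACH1 competes with NRF2 at its elements. Its scaled signal was 3015 and 4129 in control and 1388 and 1897 in auxin, below control in both libraries. Its log2 fold change was -1.12 (SE 0.20, limma adjusted p = 0.0394), and the call was lost without control replicate 2 (-0.89, adjusted p = 0.155), with scaling by library size only (adjusted p = 0.0514), with no filter on low values (0.0534), on the deposited scale (0.691) and without limma's trend (0.525). BACH1, at 3638 and 4095 in control and 3404 and 3260 in auxin, did not pass (log2 fold change -0.21, limma adjusted p = 0.730).

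Among the other regulators, 1 of 15 genes passed (BACH2), beside 0.732% of all tested genes. MAFG, a small MAF partner of NRF2, had 7216 and 5290 in control and 10250 and 8916 in auxin (log2 fold change 0.63, limma adjusted p = 0.143), while MAFK, another partner, had -0.36 (0.447). CUL3, the ligase scaffold that acts with KEAP1, was at 11498 and 11548 in control and 11474 and 11611 in auxin (log2 fold change 0.0024, SE 0.11). In the list of glutathione synthesis, reduction and use, 0 of 15 passed. In that list 3 had an unadjusted p under 0.05 under limma, beside 10.2% of all tested genes. The smallest p in the list was that of GSTP1, a glutathione transferase (log2 fold change 0.63, limma adjusted p = 0.0736). GSR, the glutathione reductase, had a log2 fold change of -0.0038. SLC3A2, the heavy chain that pairs with SLC7A11 in the cystine importer, had 18210 and 18303 in control and 14754 and 15814 in auxin, a log2 fold change of -0.26 (limma adjusted p = 0.434) against 0.79 for SLC7A11.

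Over all tested genes, 0.732% passed and 10.2% had an unadjusted p under 0.05 under limma, and the lists below are set beside these shares. In the thioredoxin and peroxiredoxin list 0 of 10 passed and 3 had an unadjusted p under 0.05 under limma. The smallest p was that of TXN2, the mitochondrial thioredoxin (log2 fold change 0.51, limma adjusted p = 0.170), while TXN, the substrate of TXNRD1, had 0.031. Of 8 genes that supply NADPH, the cofactor of both glutathione and thioredoxin reductases, 0 passed and 0 had an unadjusted p under 0.05 under limma. The smallest p was that of TKT, transketolase (log2 fold change -0.26, limma adjusted p = 0.553). Of 10 heme and iron genes 0 passed and 3 had an unadjusted p under 0.05 under limma. BLVRB, a biliverdin reductase, had the smallest p (log2 fold change 0.44, limma adjusted p = 0.304). The ferritin chains FTH1 and FTL had log2 fold changes of 0.032 and 5.2e-05. Of 7 other antioxidant enzymes 0 passed and 0 had an unadjusted p under 0.05 under limma; catalase (CAT) had the smallest p (0.38, limma adjusted p = 0.510). Of 23 tested genes of quinone, carbonyl and drug metabolism and efflux, NQO1 alone passed. An unadjusted p under 0.05 under limma was found for 6 of the 23, 3 higher and 3 lower. The higher ones were NQO1, NQO2 (log2 fold change 0.66) and PIR (0.60). The lower ones were the efflux pumps ABCC1 (-0.48), ABCC3 (-0.33) and ABCC4 (-0.45).

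**Figure D4:**
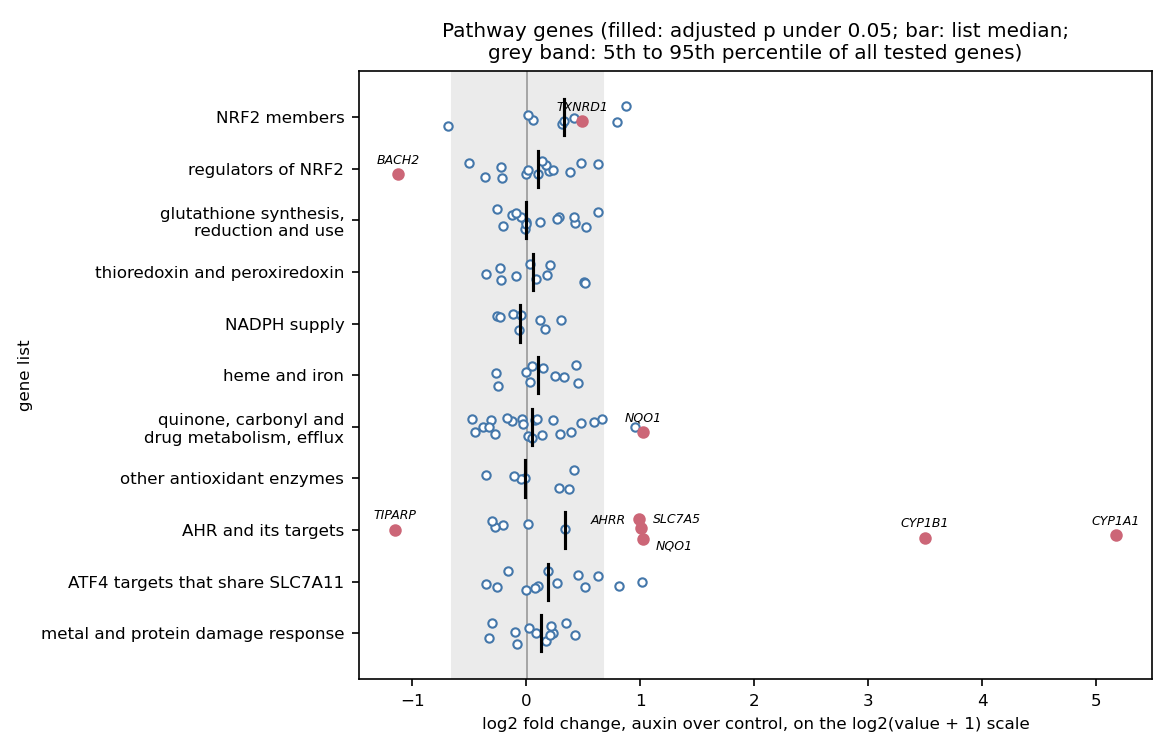
Log2 fold change of auxin over control (horizontal axis, log2(value + 1) scale) for the tested genes of each list; filled points have a limma adjusted p under 0.05, bars are list medians and the grey band holds the 5th to 95th percentile of all tested genes (-0.65 to 0.67). The median of the 9 NRF2 genes is 0.33, and CYP1A1 and CYP1B1 of the AHR list lie at 5.17 and 3.50.

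AHR and its targets were set beside these genes. Of 11 tested, 5 rose (CYP1A1, CYP1B1, AHRR, NQO1 and SLC7A5) and TIPARP fell, where 0.332% of all tested genes passed as higher and 0.4% as lower. The AHRR call (log2 fold change 0.99, limma adjusted p = 0.0319) was lost without control replicate 2 (0.70, adjusted p = 0.0741), with no filter on low values (adjusted p = 0.0551), on the deposited scale (0.999999) and without limma's trend (0.545). Calls for TIPARP and SLC7A5 were lost on the deposited scale and without the trend, and those for CYP1A1 and CYP1B1 without the trend. CYP1A1, a xenobiotic-metabolising cytochrome P450, was at 269 and 108 in control and 5995 and 6414 in auxin, a log2 fold change of 5.17 (SE 0.33), where the largest estimate among the 9 NRF2 genes was 0.87. NQO1 is the gene of both lists that passed. ALDH3A1 and UGT1A6, also of both lists, had log2 fold changes of -0.28 and 0.017 (limma adjusted p = 0.890 and 0.996).

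SLC7A11 is also a target of ATF4, the transcription factor of the integrated stress response. Of 13 ATF4 genes that share this link, 0 passed and 7 had an unadjusted p under 0.05 under limma, 5 higher and 2 lower, where 10.2% of all tested genes did (4.75% higher, 5.47% lower), with a median log2 fold change of 0.19. TRIB3, an ATF4-induced pseudokinase, had the smallest p, with 2774 and 2224 in control and 4880 and 3919 in auxin (log2 fold change 0.82, limma adjusted p = 0.0719). With 1 library left out at a time, the log2 fold change of TRIB3 ran from 0.66 to 0.98. SLC7A5, an amino acid transporter, was placed in the AHR list only (log2 fold change 1.01, limma adjusted p = 0.00179). It was not among the 13 genes, so the count of 0 holds for this list as drawn. Of 12 tested genes of the metal and protein damage response, 0 passed, beside 0.732% of all tested genes. An unadjusted p under 0.05 under limma was found for 1 of them, beside 10.2% of all tested genes. It was MT2A, a metallothionein (log2 fold change 0.43, limma adjusted p = 0.428).

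Genes whose pattern over the 4 libraries was most like that of a member were found by Euclidean distance between log2 values, each centred on the gene's mean, among 15993 protein-coding genes whose mean reached 50. Nearest to OSGIN1 were TMEM95, HTRA1 and DGKG (distances 0.11, 0.12 and 0.15 log2 units). Nearest to GCLC were DGAT2, KCNJ12 and KLK11 (0.062, 0.094 and 0.11). With 4 libraries and this many candidates, close matches describe these libraries only.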

How the data were processed

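EU-labelled RNA of 4 libraries (2 control, 2 auxin; groups and replicate numbers from the sample titles) was analysed from 1 deposited table of a scaled signal per gene and library. Trimmomatic 0.39, Bowtie2 2.4.5, deepTools 3.5.1, hg38 and dm6 are named in the submitters' processing notes; how the authors turned reads into signal, and the factor applied to each library, is not given in the sources used here. The low values of each library were whole multiples of 1 step (100% within 0.1 step), which was not read as 1 read because spans of 10 kb and more hardly ever showed a lone step. Depth in reads is therefore unknown, and precision rests on the spread between 2 libraries a group. Limma drew much of that spread from other genes of similar level (prior degrees of freedom 8.23). The control column with a misspelt name was assigned to control replicate 2. The protocols in the labels give 20 µg of fly mRNA, from S2 cells labelled with 0.2 mM EU for 2 h, added to 200 µg of rRNA-depleted human RNA.

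R 4.3.3 and limma 3.58.1 were used. A gene was kept where 2 or more libraries held the equivalent of 10 at median depth and the sum reached 15. Scaling used trimmed means of M-values (30% of ratios and 5% of levels trimmed at each end), which removes any change in total RNA. Scaled values, with a pseudocount of 1 added, were fitted as log2 (lmFit, eBayes with trend; prior degrees of freedom 8.23), with Benjamini-Hochberg adjustment at 0.05; fold changes on this scale understate the change of low genes. Genes that overlap share signal. The procedure was also run on simulated data. These held independent noise in each library and no difference shared by replicate number, so that feature of the data was not tested. Table starts were printed 1 higher, as positions from 1. Members and lists were chosen with earlier results of these data known. All 9 members are named; of each list, the genes past the threshold or else the one with the smallest p, with NQO1, CYP1A1 and CYP1B1 always, and other genes named were chosen after their values were seen. Motifs were searched with Python 3.11.15, and figures drawn with matplotlib 3.10.9. Alternatives were other scalings, filters and pseudocounts, no trend, the replicate number as a block, leaving out each library, and a longer motif.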

Additional observations from a re-analysis of the deposited data

How the results depend on the processing

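With 2 libraries a group and no read depth, the spread between libraries, drawn in part from other genes, sets the precision. The direction of NFE2L2, GCLC, SLC7A11, TXNRD1, SRXN1 and OSGIN1 held under every alternative run; the cause of the changes below was not tested. TXNRD1 did not pass on the deposited scale (log2 fold change 0.47), with no filter (0.50), with a mean of at least 50 (0.49) or without the intensity trend (0.49). HMOX1 was -0.00051 on the deposited scale. The count of members called, 1, was 0 under limma in each of those 4 settings. In that order, 1, 5, 5 and 2 of the 9 members had an unadjusted p under 0.05 under limma. Over all tested genes, 1042 of 39464, 4540 of 50810, 3520 of 29158 and 3198 of 39464 did. The count of wider pathway genes called, 2, was 1 with scaling by library size only and with a mean of at least 50. It was 0 under limma on the deposited scale, with no filter and without the trend. There 2 of 88, 19 of 93 and 7 of 88 had an unadjusted p under 0.05 under limma. The counts over all tested genes in these settings are those just given. The count of all genes called, 289, was 55 on the deposited scale and 0 without limma's trend, where 3198 genes had an unadjusted p under 0.05.

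Leaving out 1 library at a time gave log2 fold changes from 0.32 to 0.52 for NFE2L2, -0.061 to 0.19 for KEAP1, -1.04 to -0.32 for GCLC, -0.093 to 0.73 for GCLM, 0.46 to 1.13 for SLC7A11, 0.46 to 0.53 for TXNRD1, 0.15 to 0.52 for SRXN1, -0.72 to 0.76 for HMOX1 and 0.37 to 1.38 for OSGIN1. Between 0 (without control replicate 2) and 4 (without auxin replicate 2) members, 0 and 7 wider pathway genes, and 132 and 681 of all genes were then called by limma; at an unadjusted p under 0.05 it had 4 members and 14 wider genes without control replicate 2. The smallest of these called counts all came without control replicate 2. The largest did not share a run. For members and wider genes it came without auxin replicate 2, and for all genes without auxin replicate 1. Each such fit leaves 1 library in a group, so the member counts were not compared with the share of all genes. The median of the 9 genes stayed between 0.15 and 0.53, and that of the wider pathway between -0.018 and 0.14.

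The replicate numbers mark no shared day or batch in the labels, and 2 pairs are too few to show pairing; across genes, the control and auxin differences of replicate 1 from replicate 2 had a Pearson's r of 0.231, or 0.462 where the mean reached 50. With the replicate block, 7 of the 9 members were called, where 10.8% of all genes were (4273 genes), and 26 wider pathway genes. These were TXNRD1 and 6 further members with unchanged log2 fold changes: NFE2L2 (0.42), GCLC (-0.68), GCLM (0.32), SLC7A11 (0.79), SRXN1 (0.33) and OSGIN1 (0.87). KEAP1 and HMOX1 were not called. The block fit had infinite prior degrees of freedom, so genes shared 1 trend of spread. The motif with a leading A or G was in the same 40% of member windows.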
